A study of Mus musculus with 15 samples.

Results

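Cells driven by RAS switch on a set of genes whose products report on the strength of ERK signalling, and 10 of these RAS-MAPK output genes are described here: DUSP4, DUSP5, DUSP6, SPRY2, SPRY4, SPRED1, ETV4, ETV5, PHLDA1 and EPHA2. They were chosen by symbol as a known readout of the pathway; the choice was made with earlier results of these data known. All 10 were among the 25382 genes of the count table and among the 15190 genes that passed the filter on low counts.

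The 15 libraries are bulk mRNA from primary tumours labelled as MDA-MB-231. That is a human triple-negative breast cancer line, known for activating mutations in the RAS-RAF pathway. All groups share the same cell label, GFP+ Luc+, and hosts of a mouse strain labelled Nod/Skid, and the labels give no age. Marker genes given below go against the cell label in 12 of the libraries. The strongly adherent group (n = 4) comes from cells sheared at 50 dyn/cm2, the weakly adherent group (n = 6) from cells sheared at 10 dyn/cm2, and the unsorted group (n = 5) from cells that saw no shear. Tumours were dissociated to single cells before RNA extraction, and the labels name no step that removes host cells. The sample titles also carry a number: title numbers 4, 5, 6 and 9 have a library of each group, 7-8 has a weakly adherent and an unsorted library, and 10 has a weakly adherent library alone. The labels do not say whether this number marks an animal, a litter or an experiment, nor whether replicates come from separate animals, so p-values measure the spread between these libraries.

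In the RAS-MAPK cascade, active RAS recruits RAF kinases, RAF activates MEK, and MEK activates the ERK kinases. ERK then induces genes that restrain it again. Dual-specificity phosphatases remove the activating phosphates from ERK, Sprouty and SPRED proteins act upstream at the level of RAS and RAF, and ETS factors of the PEA3 group carry the signal on to further genes. The level of these transcripts is commonly used as a measure of pathway output in tumours with RAS or RAF mutations.

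Libraries held 30372619 to 45434799 counts, and the 10 genes together took 0.212% to 0.319% of each. The 3 libraries of title number 6 stood apart from the other 12. CDH1, the epithelial adhesion molecule E-cadherin that MDA-MB-231 is known not to express, lay at 0.267 to 5.56 CPM (a gene's count scaled to the size of the library, with TMM factors) in title number 6 and at 53.1 to 549 CPM in the other 12, and NKX2-1, a transcription factor of lung and thyroid, at 0 to 0.399 and 6.18 to 58.1 CPM. The mesenchymal filament gene VIM was at 6489 to 7399 CPM in title number 6 and 1143 to 4478 CPM elsewhere. CDKN2A and CDKN2B, known to be deleted in MDA-MB-231, had 0 counts in all 15 libraries, which allows at most 0.10 CPM in the shallowest library. The 6 genes known as high in the line (VIM, CD44, AXL, MSN, CAV1, ZEB1) were detected in every library. By CDH1 and the lung genes, the 12 libraries outside title number 6 go against the label MDA-MB-231, so the leading results are given with and without title number 6 where the comparison allows it.

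**Figure D1:**
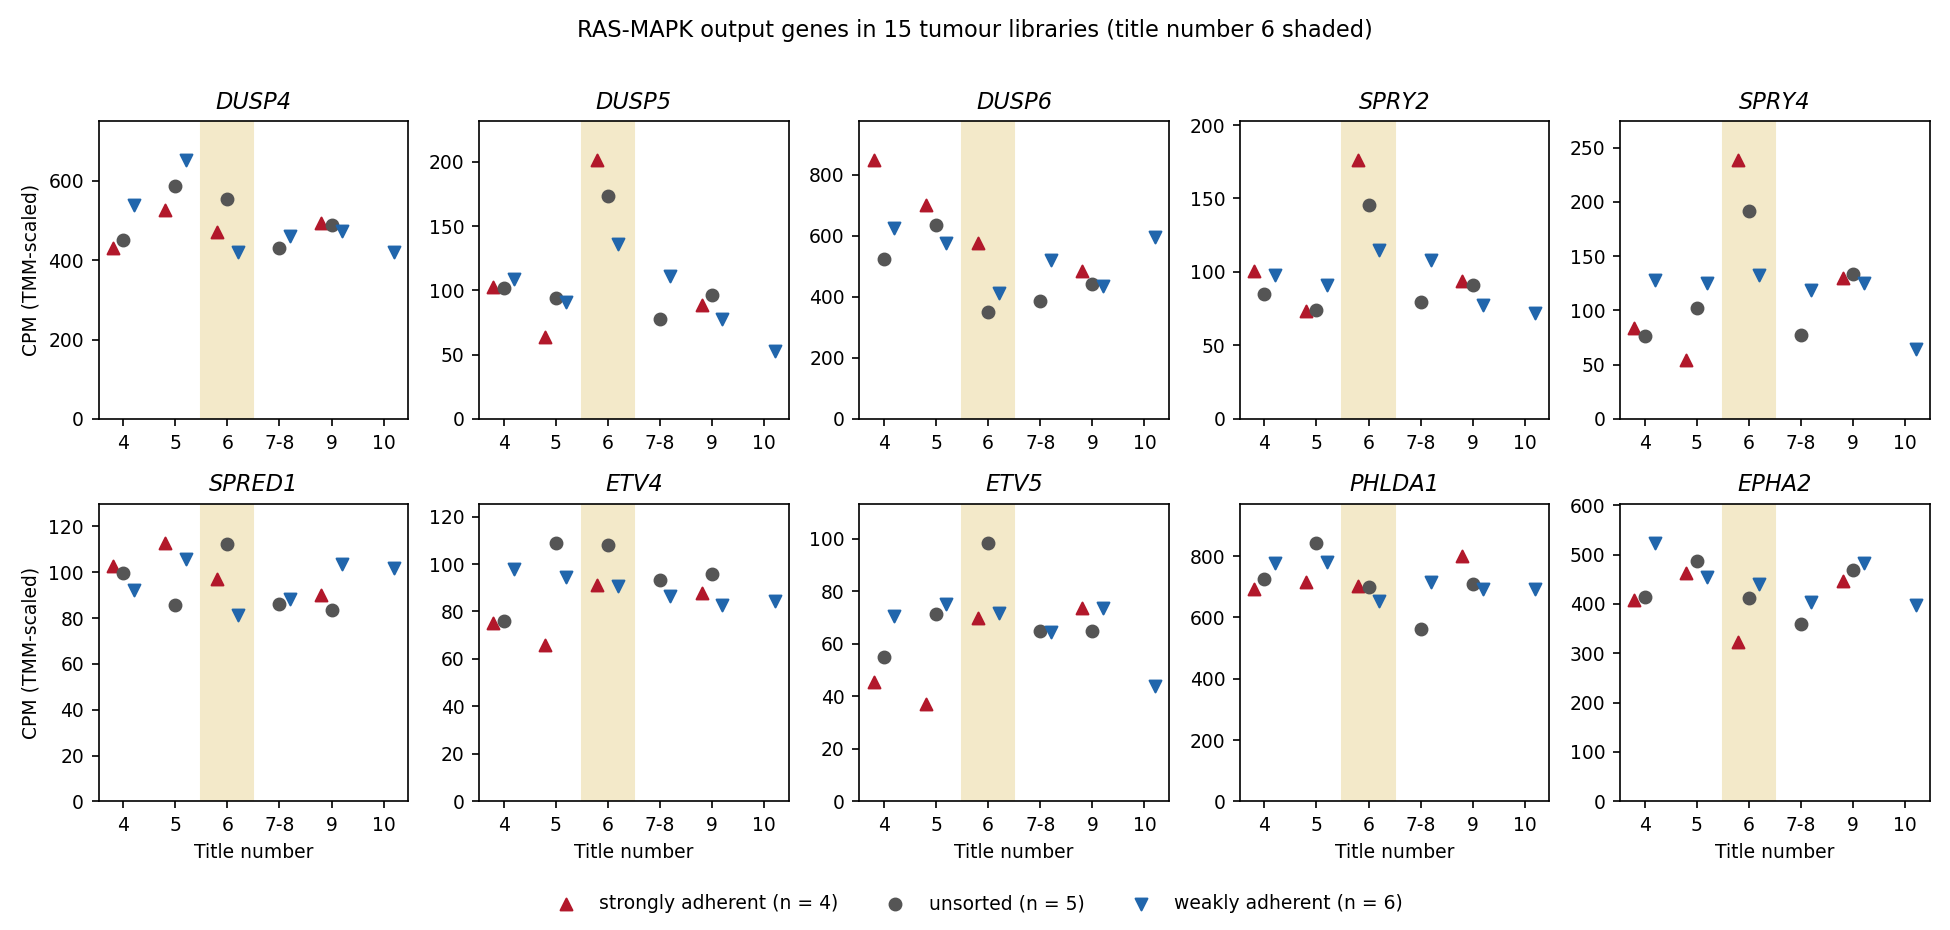
Expression of the 10 RAS-MAPK output genes in TMM-scaled CPM (y axis, from 0) by title number (x axis), 1 point per library, with adhesion group by colour and shape. In title number 6 (shaded) DUSP5 and SPRY2 lay above all of the other 12 libraries, while the adhesion groups overlap in each of the 10 panels.

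DUSP4, DUSP5 and DUSP6 are the phosphatases of the set. DUSP6 is cytoplasmic and prefers ERK, DUSP5 is its nuclear counterpart, and DUSP4 is a nuclear phosphatase that also acts on other MAP kinases. DUSP6 was at 847, 700, 576 and 483 CPM in strongly adherent libraries 4, 5, 6 and 9. Unsorted libraries 4, 5, 6, 7-8 and 9 had 524, 634, 351, 385 and 443 CPM of DUSP6. The weakly adherent libraries ran from 411 to 626 CPM with a median of 549 CPM. Strongly adherent libraries 4 and 5 were the highest of the 15, but strongly adherent library 9 lay below 2 unsorted libraries, so the groups overlapped.

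DUSP5 was at 102, 63.4, 201 and 88.2 CPM in strongly adherent libraries 4, 5, 6 and 9. In unsorted libraries 4, 5, 6, 7-8 and 9 the level of DUSP5 was 102, 93.7, 174, 77.6 and 96.4 CPM. Weakly adherent libraries spanned 52.7 to 136 CPM, with a median of 99.9 CPM and the highest value in library 6. Within every adhesion group the library of title number 6 was thus the highest. The lowest of the 15 libraries, weakly adherent 10, was 3.82-fold below the highest.

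DUSP4 varied less, with an SD of 13.6% of its mean of 494 CPM over the 15 libraries. Its values in strongly adherent libraries 4, 5, 6 and 9 were 431, 527, 471 and 495 CPM. In unsorted libraries 4, 5, 6, 7-8 and 9 they were 450, 586, 555, 431 and 488 CPM, and the weakly adherent libraries ran from 421 to 652 CPM with a median of 468 CPM. The libraries of title number 5 were high in all groups (527, 586 and 652 CPM), and those of title number 6 lay inside the range of the rest.

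SPRY2, SPRY4 and SPRED1 encode inhibitors that act upstream of ERK. Sprouty proteins dampen signalling from receptor tyrosine kinases, and SPRED1 brings the RAS GTPase-activating protein neurofibromin to the membrane. SPRY2 was at 101, 73.4, 176 and 94.2 CPM in strongly adherent libraries 4, 5, 6 and 9. Unsorted libraries 4, 5, 6, 7-8 and 9 had 85.2, 74.4, 145, 79.4 and 91.3 CPM of SPRY2, and the weakly adherent libraries 71.9 to 115 CPM with a median of 94.3 CPM. As for DUSP5, the library of title number 6 was the highest of its group each time.

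SPRY4 had the widest range of the 10 genes, 4.36-fold from the lowest to the highest library. Strongly adherent libraries 4, 5, 6 and 9 had 83.7, 54.7, 238 and 130 CPM. Unsorted libraries 4, 5, 6, 7-8 and 9 had 76.1, 102, 192, 77.6 and 134 CPM, and the weakly adherent libraries 64.9 to 133 CPM with a median of 125 CPM. Strongly adherent 6 and unsorted 6 were the highest of all, whereas weakly adherent 6, at 133 CPM, was level with unsorted 9.

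SPRED1 had the narrowest range, 81.2 to 113 CPM over the 15 libraries or 1.39-fold. It was at 103, 113, 96.9 and 90.2 CPM in strongly adherent libraries 4, 5, 6 and 9. The unsorted libraries 4, 5, 6, 7-8 and 9 had 99.6, 85.8, 112, 86.1 and 83.5 CPM, and the weakly adherent libraries had 81.2 to 106 CPM with a median of 97.0 CPM. No group or title number stood apart for SPRED1.

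ETV4 and ETV5 encode ETS transcription factors of the PEA3 group, which are induced and stabilised by ERK activity. ETV4 was at 75.3, 65.9, 91.1 and 87.9 CPM in strongly adherent libraries 4, 5, 6 and 9. Unsorted libraries 4, 5, 6, 7-8 and 9 had 76.1, 109, 108, 93.1 and 95.9 CPM of ETV4, and the weakly adherent libraries 82.8 to 98.1 CPM with a median of 88.7 CPM. The lowest values were strongly adherent 5 and 4, and the groups overlapped through unsorted library 4.

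ETV5 was at 45.4, 37.1, 69.8 and 73.6 CPM in strongly adherent libraries 4, 5, 6 and 9. Unsorted libraries 4, 5, 6, 7-8 and 9 had 55.1, 71.2, 98.5, 64.8 and 64.9 CPM of ETV5, and the weakly adherent libraries 44.0 to 75.1 CPM with a median of 71.2 CPM. Strongly adherent 4 and 5 and weakly adherent 10 were low, and unsorted 6 was the highest library.

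PHLDA1, a pleckstrin-homology-like protein induced by growth factors, and EPHA2, a receptor tyrosine kinase for ephrin-A ligands, complete the set. PHLDA1 had the smallest relative spread of the 10 genes, an SD of 9.25% of its mean of 718 CPM. Strongly adherent libraries 4, 5, 6 and 9 had 692, 717, 702 and 802 CPM of PHLDA1. Unsorted libraries 4, 5, 6, 7-8 and 9 had 727, 844, 700.0, 562 and 711 CPM, and the weakly adherent libraries 655 to 781 CPM with a median of 704 CPM. The extremes were both unsorted libraries, 5 and 7-8.

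EPHA2 was at 407, 463, 322 and 446 CPM in strongly adherent libraries 4, 5, 6 and 9. In unsorted libraries 4, 5, 6, 7-8 and 9 it was at 414, 487, 412, 360 and 469 CPM, and the weakly adherent libraries ran from 398 to 524 CPM with a median of 448 CPM. Strongly adherent library 6 was the lowest and weakly adherent library 4 the highest.

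The comparisons of adhesion groups ask whether tumours grown from cells sorted by adhesion strength differ in pathway output. Between weakly and strongly adherent tumours, 0 of 10 genes passed the edgeR quasi-likelihood test at an adjusted p of 0.05, beside 0% of all 15190 genes tested. The same count was 0 of 10 beside 0% for weakly adherent against unsorted, and 0 of 10 beside 0% for strongly adherent against unsorted. At an unadjusted p under 0.05, 2 of the 10 genes were reached, both in strongly adherent against unsorted, and 366, 81 and 572 of all genes in the 3 comparisons. DESeq2 with the same terms called 0 of the 10 genes in each comparison. The median log2 fold change of the 10 genes was -0.05 for weakly against strongly adherent, -0.01 for weakly adherent against unsorted and 0.05 for strongly adherent against unsorted, beside -0.02, -0.00032 and 0.02 over all genes. The last comparison shares its strongly adherent libraries with the first and its unsorted libraries with the second.

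DUSP6 had the smallest p of the set. Its mean was 652 ± 158 CPM (SD, n = 4) in strongly adherent, 467 ± 114 CPM (SD, n = 5) in unsorted and 528 ± 88.0 CPM (SD, n = 6) in weakly adherent tumours. The log2 fold change of strongly adherent against unsorted was 0.48 ± 0.19 (SE, 95% interval 0.07 to 0.89), with an adjusted p of 0.975, so the difference did not pass the test. Inside each of the 4 title numbers that hold both libraries, strongly adherent was above unsorted, by 0.13 to 0.72 on the log2 scale. Strongly adherent was also above weakly adherent in 4 of 4 title numbers, by a log2 fold change for weakly against strongly adherent of -0.49 to -0.15. The share of all genes with the same sign in 4 of 4 title numbers was not computed, so these counts carry no test. Without title number 6 the DUSP6 log2 fold change of strongly adherent against unsorted was 0.44, and without strongly adherent library 5 as well it was 0.41.

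For ETV4 the means were 80.0 ± 11.7 CPM (SD, n = 4) in strongly adherent, 96.4 ± 13.4 CPM (SD, n = 5) in unsorted and 89.6 ± 5.99 CPM (SD, n = 6) in weakly adherent tumours. The log2 fold change of strongly adherent against unsorted was -0.27 ± 0.12 (SE, 95% interval -0.53 to -0.01, adjusted p = 0.975), and strongly adherent was the lower library in 4 of 4 title numbers. ETV5 had the same sign at -0.33 ± 0.22 (SE, adjusted p = 0.975), with 3 of 4 title numbers lower. Weakly adherent ETV5 was above strongly adherent in 4 of 4 title numbers, by 0.0021 to 1.02 on the log2 scale, and its log2 fold change was 0.24 ± 0.21 (SE). Without title number 6, the log2 fold change of strongly adherent against unsorted was -0.30 for ETV4 and -0.31 for ETV5, and without strongly adherent library 5 as well it was -0.21 and -0.11. For weakly against strongly adherent, ETV5 had 0.34 without title number 6 and 0.15 without strongly adherent library 5 as well. In strongly adherent against unsorted, the DUSP6 and ETV4 intervals thus excluded 0 on opposite sides before adjustment, and neither gene passed the test over all genes. EPHA2 was also lower in strongly adherent than in unsorted in 4 of 4 title numbers, at log2 ratios of -0.36 to -0.02. As for DUSP6, these counts of title numbers carry no test.

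The intervals of the other 7 genes included 0 in all 3 comparisons. They were widest for SPRY4, whose log2 fold change of strongly adherent against unsorted was 0.12 with an interval of -0.69 to 0.94, and for DUSP5, at 0.07 with an interval of -0.64 to 0.77. For PHLDA1 the same interval ran from -0.21 to 0.28 and for SPRED1 from -0.13 to 0.35. In this fit, the size of change left possible is thus larger for SPRY4 and DUSP5 than for PHLDA1 and SPRED1. The adhesion group is its only term, so the spread between title numbers counts as noise in these intervals.

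**Figure D2:**
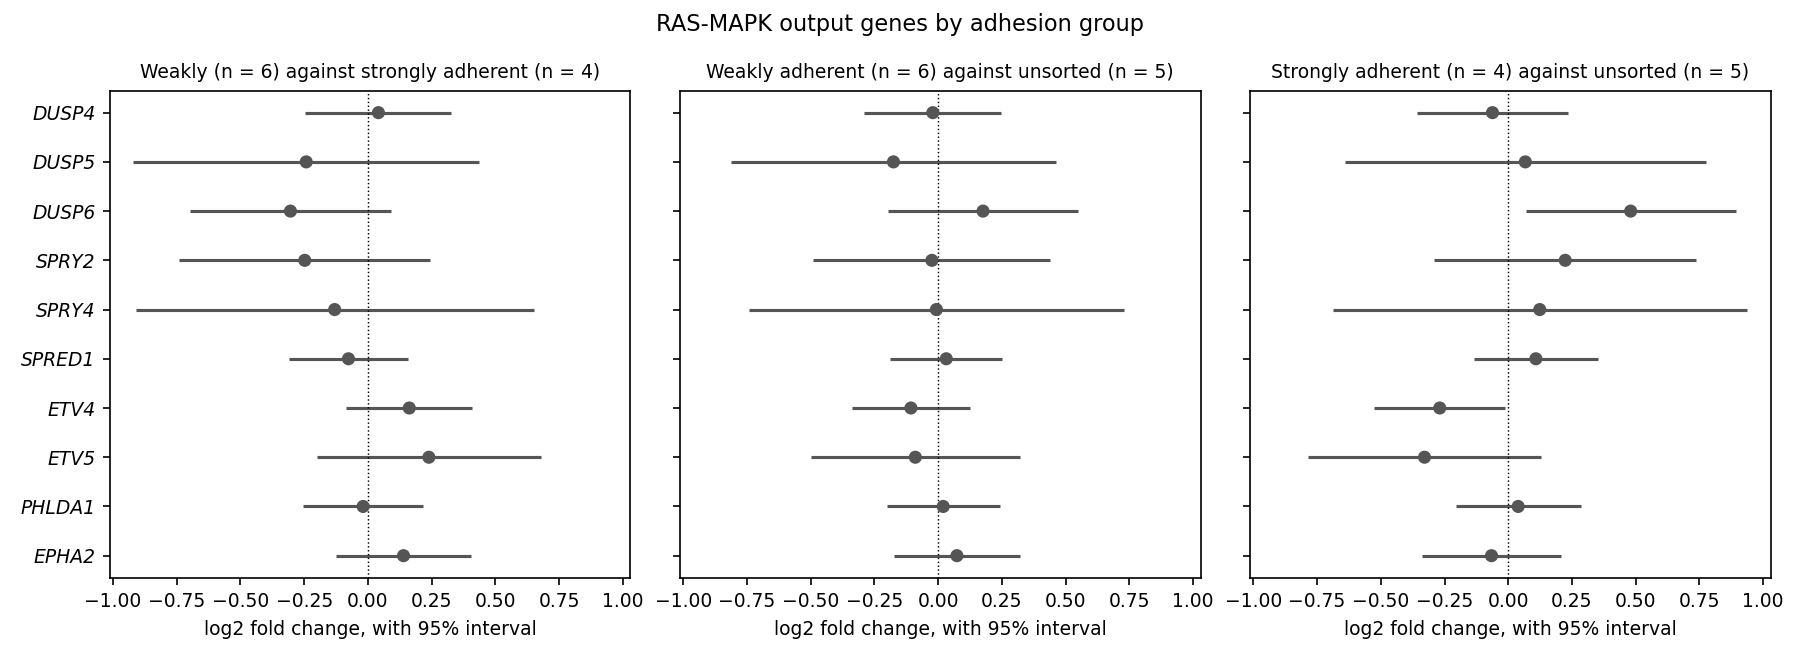
Log2 fold change (x axis) of each of the 10 genes between adhesion groups, 1 panel per comparison, as points with 95% intervals from the edgeR fit over all 15 libraries. All are grey because 0 of 10 passed the adjusted test, and the intervals that exclude 0 are those of DUSP6 (0.07 to 0.89) and ETV4 (-0.53 to -0.01) in strongly adherent against unsorted.

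Over all 15 libraries, the 6 title numbers took a larger share of the spread than the 3 adhesion groups in all of the 10 genes except ETV4, and in the 12 libraries outside title number 6 in all except ETV4 and SPRED1. Of the variance of log2 CPM over the 15 libraries, the share between title numbers was 84.3% for DUSP5, 77.4% for SPRY2, 63.7% for SPRY4, 60.8% for DUSP4 and 60.4% for DUSP6, beside a median of 50.5% over all genes tested. It was 22.1% for SPRED1 and 15.4% for ETV4. The share between adhesion groups was highest for DUSP6 at 31.0% and ETV4 at 30.9%, beside a median of 7.36% over all genes. Outside title number 6 the share between title numbers was 66.6% for DUSP5, 72.4% for DUSP4 and 65.1% for DUSP6, beside a median of 41.3% over all genes, while SPRY2 at 43.7% and SPRY4 at 42.0% lay near that median. The share between adhesion groups was then highest for ETV4 at 36.9% and SPRED1 at 35.4%, followed by DUSP6 at 29.0%, beside a median of 16.1%. These shares are descriptions without a test. A split into 6 title numbers tends to take a larger share than a split into 3 groups for unrelated values too. Title number 10 is also a single library. Which share is larger is thus no result, and each is to be read beside its median over all genes.

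With adhesion group in the fit, 2 of the 10 genes differed among the 6 title numbers, beside 7.90% of all genes: DUSP5 (adjusted p = 0.0145) and SPRY2 (adjusted p = 0.0334). DUSP6 (adjusted p = 0.0679) and SPRY4 (adjusted p = 0.107) did not pass. Without title number 6, 0 of 10 genes passed, and 3 of all genes did. The count was also 0 of 10 without strongly adherent library 6 or without unsorted library 6, beside 386 and 591 of all genes. It was 1 of 10 without strongly adherent library 4 or 9, without unsorted library 4, 5 or 9, or without weakly adherent library 4. In those runs 637 to 933 of all genes passed. With all libraries 1200 of all genes passed, so the calls fell over all genes too.

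Each title number was then set against all other libraries. Every library counts as independent in this test. Deviations from the group means correlated at 0.683 to 0.767 between the 3 libraries of title number 6. If libraries that share a number are not independent, the p-values of all title-number comparisons here and below are too small. Title number 6 had 3 of the 10 genes called, all higher, beside 26.5% of all genes called, 10.4% higher and 16.0% lower. A share of 3 in 10 is near that background. The other numbers had 0 of 10 called: number 4 beside 0%, number 5 beside 0%, number 7-8 beside 0%, number 9 beside 0.00658% and number 10 beside 0% of all genes. The smallest unadjusted p outside title number 6 was that of DUSP4 in title number 5, where its log2 fold change was 0.33 and its adjusted p 0.924.

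The 3 genes called in title number 6 were DUSP5, SPRY2 and SPRY4, a nuclear ERK phosphatase and a pair of Sprouty inhibitors. DUSP5 averaged 170 CPM in title number 6 (136 to 201) and 88.7 CPM in the other 12 libraries (52.7 to 111), and its log2 fold change was 0.93 ± 0.18 (SE, adjusted p = 0.00186). SPRY2 averaged 146 CPM (115 to 176) against 87.1 CPM (71.9 to 108), with a log2 fold change of 0.72 ± 0.13 (SE, adjusted p = 0.00118). The libraries of title number 6 were above all other 12 for these 2 of the 10 genes, beside 5.63% of all genes, and below all other 12 for 0 of the 10, beside 10.4% of all genes. SPRY4 averaged 188 CPM (133 to 238) against 102 CPM (54.7 to 134), with a log2 fold change of 0.91 ± 0.26 (SE, adjusted p = 0.0205), and its ranges overlapped. SPRY4 no longer passed when strongly adherent library 6 (adjusted p = 0.192) or unsorted library 6 (adjusted p = 0.0830) was left out, while DUSP5 and SPRY2 passed with any single library left out.

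The other 7 genes did not pass in title number 6. ETV5 had a log2 fold change of 0.40 ± 0.18 (SE, adjusted p = 0.103) and DUSP6 of -0.39 ± 0.17 (SE, adjusted p = 0.0969). When strongly adherent library 9 was left out both passed, DUSP6 at -0.45 (adjusted p = 0.0312) and ETV5 at 0.50 (adjusted p = 0.0207). DUSP4 (-0.04), SPRED1 (0.0082), PHLDA1 (-0.08), ETV4 (0.16) and EPHA2 (-0.17) had smaller log2 fold changes. The 10 values did not share a sign: 6 values were positive and 4 negative, with a median log2 fold change of 0.08 beside -0.0064 over all genes.

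**Figure D3:**
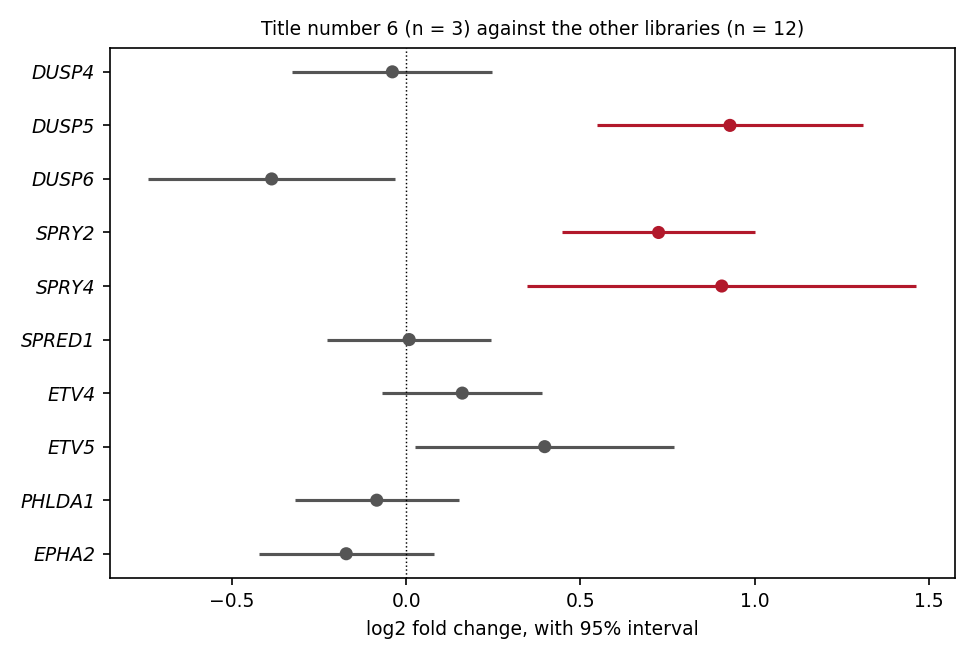
Log2 fold change (x axis) of each of the 10 genes in the 3 libraries of title number 6 against the other 12, with adhesion group in the fit, as points with 95% intervals. DUSP5 (0.93), SPRY2 (0.72) and SPRY4 (0.91), in red, passed the adjusted test, and the other 7, in grey, did not.

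The level of DUSP5 relative to the other phosphatases differed between title number 6 and the rest, which restates its own difference as ratios. The counts of DUSP6 divided by those of DUSP5 were 2.02 to 3.03 in the libraries of title number 6 and 4.60 to 11.3 in the other 12, so the ranges did not overlap. DUSP4 over DUSP5 was 2.34 to 3.20 in title number 6 and 4.16 to 8.32 elsewhere. DUSP6 over DUSP4, which leaves DUSP5 out, overlapped at 0.632 to 1.22 against 0.884 to 1.96. DUSP6 over SPRY4 was 1.83 to 3.10 against 3.31 to 12.8. ETV4 over ETV5 overlapped, at 1.10 to 1.30 against 1.12 to 1.92. These ratios compare libraries and not the abundance of the genes, since no gene lengths were used, and they were chosen after the values had been seen, so they carry no test.

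**Figure D4:**
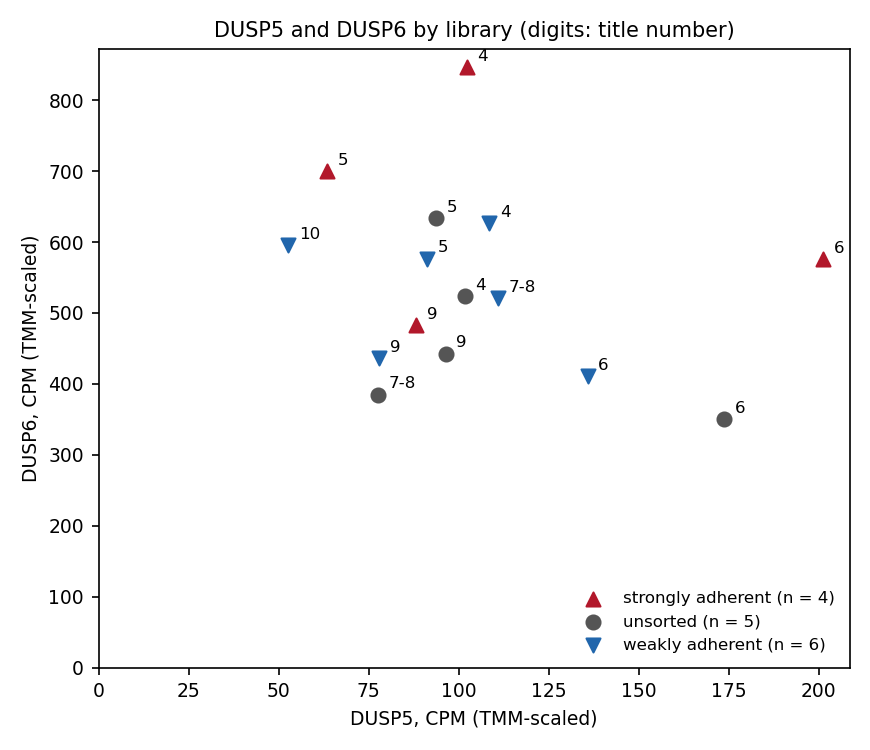
DUSP6 (y axis) against DUSP5 (x axis) in TMM-scaled CPM, 1 point per library, with adhesion group by colour and shape and the title number beside each point. The 3 libraries of title number 6 lie furthest right, at 136 to 201 CPM of DUSP5, and the 2 highest DUSP6 values are strongly adherent libraries 4 and 5.

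Markers of other tissues differed in the same libraries, and their part in the differences of DUSP5, SPRY2 and SPRY4 was not tested. Of 10 epithelial markers tested, 9 were lower in title number 6, with a summed level of 1827 to 2359 CPM against 3131 to 7452 CPM. Of 6 lung-lineage genes tested, 5 were lower, at 0.509 to 2.06 CPM summed over the 8 genes of the list against 17.2 to 335 CPM, and 2 to 6 of the 8 were at 0 counts per library. Of 14 striated muscle genes, 8 were higher and 1 lower, at 160 to 983 CPM in title number 6, 2480 CPM in strongly adherent library 5 and 5.79 to 13.9 CPM in the other 11 libraries. Lung-lineage genes called lower numbered 3 without strongly adherent library 6 and 3 without unsorted library 6, beside 1642 and 3272 of all genes called. Without unsorted library 6, 0 of the 11 muscle genes then tested passed, and without weakly adherent library 6, 0 were higher and 1 was lower. The muscle genes tested fell from 14 to 11 in both cases. The genes lost, MYH1 among them, had passed the filter on low counts only with the libraries of title number 6 included. Their calls as higher are thus not independent of the filter. Strongly adherent library 5 had the lowest SPRY4, ETV4 and ETV5 of the 15 libraries. Fibroblast markers summed to 223 to 413 CPM in title number 6 and 443 to 1361 CPM in the rest. Of 8 fibroblast genes tested, 5 were lower and 1 higher, and with a library of title number 6 left out, 3 to 4 were lower and 0 higher. Endothelial markers summed to 25.3 to 34.6 and 9.38 to 23.8 CPM. Of 6 endothelial genes tested, 1 was higher and 0 lower, and 0 passed without weakly adherent library 6. Myeloid markers summed to 123 to 206 and 74.4 to 129 CPM. Of 6 myeloid genes tested, CD68 was higher, at a log2 fold change of 0.89, and 3 were lower, PTPRC at -2.32, AIF1 at -1.72 and CSF1R at -0.82, so the sum and most single genes differ in sign. Without strongly adherent library 6, 0 myeloid genes were higher and 1 was lower, and without unsorted library 6, 1 was higher and 2 were lower. TYROBP, a myeloid adaptor gene, was at 0 in all libraries. In bulk RNA, a smaller share of cells of a type and less RNA per cell cannot be told apart.

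Among close relatives of the 10 genes, calls in title number 6 went both ways. The counts here and for the pathway lists that follow stand beside 26.5% of all genes called, 10.4% higher and 16.0% lower. With a library of title number 6 left out, they stand beside fewer calls over all genes. These numbered 1642 without strongly adherent library 6, 3272 without unsorted library 6 and 3373 without weakly adherent library 6, in place of 4018. Of 8 other dual-specificity phosphatases, 3 were lower and 0 higher: DUSP16 at 10.3 against 17.9 CPM, DUSP8 at 0.529 against 3.92 CPM and DUSP9 at 0.102 against 7.03 CPM (means of the 3 and the 12 libraries). DUSP9 in title number 6 lay near the limit of 3 counts, 0.076 to 0.092 CPM in those libraries, so the size of its difference is uncertain. Of 3 other Sprouty and SPRED genes tested, 2 were lower. SPRY1 had a log2 fold change of -0.75 ± 0.21 (SE, adjusted p = 0.0172) and SPRED3 of -0.61 ± 0.21 (SE, adjusted p = 0.0411), the opposite sign to SPRY2 and SPRY4. Of 9 other ETS family and partner genes, 3 were higher and 0 lower. ETV1, the third PEA3 factor beside ETV4 and ETV5, averaged 135 CPM (124 to 151) against 87.4 CPM (61.1 to 108), a log2 fold change of 0.66 ± 0.14 (SE, adjusted p = 0.00383). ELK1, a direct ERK substrate, was higher by 0.46 ± 0.11 (SE, adjusted p = 0.00805) and ETS1 by 0.58 ± 0.20 (SE, adjusted p = 0.0443) on the log2 scale. Leaving out strongly adherent library 6 ended the calls of SPRY1 (adjusted p = 0.123), SPRED3 (0.317), ETS1 (0.237) and DUSP9 (0.0533). Without unsorted library 6 the adjusted p was 0.10 for SPRY1, 0.145 for ETS1 and 0.0598 for ELK1, and without weakly adherent library 6 it was 0.124 for SPRED3. DUSP8, DUSP16 and ETV1 passed in each case, and none of the 8 genes turned its direction.

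Among 26 further genes known to respond to ERK, 5 were higher and 2 lower in title number 6, a share near the 26.5% of all genes called. KLF6, a zinc-finger factor, had a log2 fold change of 1.01 ± 0.20 (SE, adjusted p = 0.00239) and MYC, a growth-promoting transcription factor, of 0.82 ± 0.21 (SE, adjusted p = 0.00934). VEGFA, an angiogenic factor, was lower at -0.53 ± 0.15 (SE, adjusted p = 0.0198). Without strongly adherent library 6 the adjusted p was 0.144 for MYC, and 1 gene of the list was higher and 1 lower. VEGFA did not pass without unsorted library 6 (adjusted p = 0.183) or weakly adherent library 6 (adjusted p = 0.0578), while KLF6 passed in each case. The immediate early genes FOS and EGR1, which were not called in title number 6 (adjusted p = 0.801 and 0.569), had another order of libraries. FOS was at 5.24 to 10.0 CPM in the 4 libraries of title numbers 9 and 10 and at 196, 261 and 337 CPM in those of title number 4, and EGR1 at 18.3 to 34.9 CPM and 199 to 322 CPM. Over the same libraries DUSP6 was at 436 to 596 CPM and 524 to 847 CPM, and SPRY4 at 64.9 to 134 CPM and 76.1 to 128 CPM. DUSP5 had the same order as FOS there, at 52.7 to 96.4 CPM and 102 to 109 CPM. It was the only member whose ranges did not overlap, and no test was run on this split.

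Of the cascade itself, 3 of 25 core genes were higher in title number 6, 1 was lower and 21 did not pass, a smaller share of calls than the 26.5% of all genes, with no test of that difference. MAP2K1, which encodes MEK1, averaged 98.9 against 72.6 CPM, a log2 fold change of 0.46 ± 0.13 (SE, adjusted p = 0.0177). NRAS was higher by 0.40 ± 0.13 (SE, adjusted p = 0.0290) and RRAS2 by 0.32 ± 0.10 (SE, adjusted p = 0.0280) on the log2 scale. BRAF (0.14) and MAPK3, which encodes an ERK kinase (0.16), had log2 fold changes that did not pass. The counts do not show which allele of BRAF was transcribed. Of 7 RAS GTPase-activating protein genes tested, RASA3 was higher (0.62 ± 0.20 on the log2 scale, SE, adjusted p = 0.0287) and DAB2IP lower (-0.63 ± 0.18, SE, adjusted p = 0.0152). Without strongly adherent library 6, 0 of the 25 core genes and 0 of the 7 GTPase-activating protein genes passed. Calls over all genes fell from 4018 to 1642 in that run. The adjusted p was then 0.0997 for MAP2K1, 0.0895 for NRAS, 0.111 for RRAS2, 0.203 for RASA3 and 0.142 for DAB2IP. Without unsorted library 6, the adjusted p was 0.0777 for MAP2K1, 0.296 for NRAS, 0.0524 for RRAS2 and 0.0796 for RASA3. Without weakly adherent library 6, it was 0.0943 for RRAS2.

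Calls among the receptors upstream were all to the lower side in title number 6. Of 17 receptor tyrosine kinases tested, 8 were lower and 0 higher, beside 16.0% of all genes called lower. ERBB3 averaged 5.25 against 45.4 CPM, MST1R 18.2 against 50.2 CPM, DDR1 109 against 245 CPM and FGFR3 0.803 against 14.5 CPM. EGFR had a log2 fold change of 0.20 (adjusted p = 0.678). Of 15 growth factor ligands, 1 was higher and 5 lower, among them the EGFR ligands EREG, at 15.9 against 49.6 CPM, and TGFA, at 37.1 against 71.0 CPM. Among 18 other Eph receptors and ephrins, 8 were lower and 1 higher. EPHB4 averaged 64.9 against 167 CPM, EPHB3 0.237 against 7.11 CPM and EPHA1 0.158 against 8.27 CPM, while EPHA2, at 391 against 443 CPM, did not pass. EPHB3 and EPHA1 were low in title number 6, where 3 counts are 0.076 to 0.092 CPM, so the size of their differences is uncertain. Without strongly adherent library 6, 5 receptor tyrosine kinases, 2 ligands and 6 Eph or ephrin genes were lower, and the adjusted p was 0.0878 for EREG and 0.121 for TGFA. EREG also missed the threshold without unsorted library 6 (adjusted p = 0.0664), and TGFA without weakly adherent library 6 (adjusted p = 0.0511). ERBB3, MST1R, DDR1, FGFR3, EPHB4, EPHB3 and EPHA1 passed with any library of title number 6 left out. In the 3 adhesion comparisons 0 genes of these 9 pathway lists passed the adjusted edgeR test. For strongly adherent against unsorted, the log2 fold changes of BRAF, MAP2K1, MAPK3 and EGFR were 0.27, -0.15, -0.10 and 0.26.

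Whether the 10 genes move together was described over the 12 libraries outside title number 6, since pooled values would reflect the gap between the clusters. Over 45 pairs of genes, Pearson's r of log2 CPM ranged from -0.73 to 0.874 with a median of 0.284, and 35 were positive. DUSP5 and SPRY2 were the pair that passed by both measures, with r = 0.797 (permutation p = 0.00098, adjusted p = 0.0269) and Spearman's rho = 0.832 (permutation p = 0.00119, adjusted p = 0.0393), adjusted over 55 relations. For this pair r was 0.721 without the 2 libraries farthest from the DUSP5 median. SPRY4 and ETV5 had r = 0.874 (permutation p = 0.00034, adjusted p = 0.0187), rho = 0.748 (permutation p = 0.00693, adjusted p = 0.0953) and r = 0.69 without the 2 libraries farthest from the SPRY4 median. For DUSP4 and PHLDA1, r was 0.688 (permutation p = 0.0135, adjusted p = 0.112) and rho 0.825 (permutation p = 0.00143, adjusted p = 0.0393). Libraries that share a title number may not be independent, which would make these p-values too small.

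For DUSP6 with DUSP5, r was 0.0301 over the 12 libraries and 0.612 without the 2 farthest from the DUSP5 median. The low value thus depends on those libraries, and leaving out the libraries farthest for DUSP6 was not tried for this pair. With DUSP4, r of DUSP6 was 0.191, and 0.0932 without the 2 libraries farthest from the DUSP4 median. With ETV5, r of DUSP6 was -0.559 (adjusted p = 0.269), and -0.504 without the 2 libraries farthest from the DUSP6 median. SPRED1 and ETV4 had the lowest value, r = -0.73 (permutation p = 0.00662, adjusted p = 0.091), and -0.575 without the 2 libraries farthest from the SPRED1 median. With FOS, an immediate early target of the same pathway, r of the 10 genes lay between -0.177 and 0.545 and 0 of 10 passed, with a smallest adjusted p of 0.269.

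**Figure D5:**
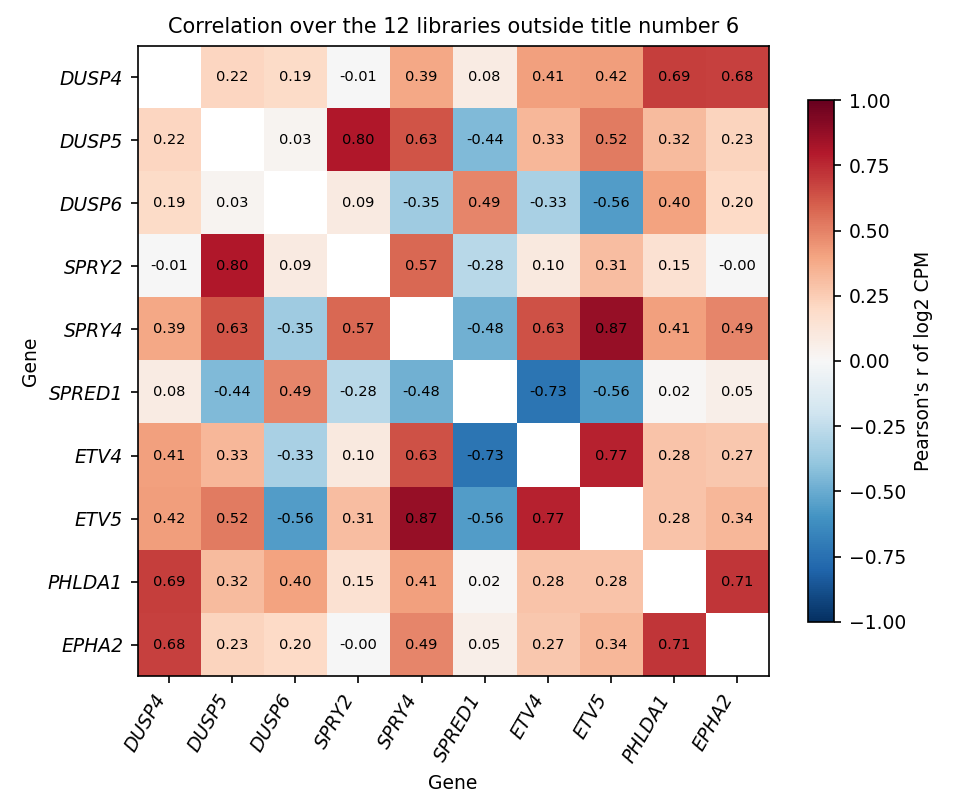
Pearson's r of log2 CPM for each pair of the 10 genes (both axes) over the 12 libraries outside title number 6, from -1 in blue to 1 in red. The highest values are SPRY4 with ETV5 (0.87) and DUSP5 with SPRY2 (0.80), and the lowest is SPRED1 with ETV4 (-0.73).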

How the data were processed

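The 15 tumour libraries are stranded Illumina TruSeq mRNA libraries with single reads of 50 bp, per the labels. The submitters' processing notes list STAR, HTSeq, cutadapt, FastQC and DESeq2, with no versions, and the build hg19. Not given in the sources used here is the strand setting of the counting. The organism label is mouse while symbols and build are human, so host reads that align to human genes may be among the counts. The authors deposited raw counts per gene, which were the basis of every test. The deposited log2 values, log2 of normalized counts plus 1 as recomputed here, served 1 alternative.

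Tests on the counts used edgeR 4.0.16 under R 4.3.3, with genes filtered by filterByExpr on the groups, TMM factors and robust quasi-likelihood fits over all libraries (two-sided, Benjamini-Hochberg over 15190 genes, threshold 0.05). Adhesion contrasts had the group as the only term. Each title number was set against the rest, and all 6 numbers were compared, with the group in the fit. Standard errors are the absolute log2 fold change over the square root of F, so the 95% intervals are approximate. Permutation tests used 100000 resamples. Limits from a count of 0 are 3 counts and cover counting error only. Alternatives were other scalings and filters, DESeq2 1.42.0, limma 3.58.1, the title number as a block and left-out libraries.

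The members and lists were chosen with earlier results of these data known. All 10 members are named, BRAF, MAP2K1, MAPK3 and EGFR are given as values, and from each of the pathway lists up to 4 called genes of smallest p are named. EGF, BTC and EFNA2, which this rule picks, are left out for counts near the limit of detection, as are the 2 most abundant genes of each list without a call. Some genes that the rule picks are not reported here. FOS and EGR1, and TYROBP, were named after their values were seen. The edgeR fits were tested on simulated counts before use. No human sequence was used here.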

Additional observations from a re-analysis of the deposited data

Results flagged for a closer look

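In the unsorted group of 5 libraries, library 6 lay far above the others for DUSP5, at 174 CPM with the next library at 102 CPM, and for SPRY2, at 145 CPM with the next at 91.3 CPM. In the weakly adherent group of 6 libraries, library 10 lay far below the others for SPRY4, at 64.9 CPM with the next at 119 CPM, and for ETV5, at 44.0 CPM with the next at 64.6 CPM. Each gap passed Dixon's 95% limit, which chance passes in about 1 of 20 groups, and 30 groups were examined.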

How the results depend on the processing

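The calls of DUSP5 and SPRY2 in title number 6 held in every alternative run, at log2 fold changes of 0.77 to 1.08 and 0.60 to 0.90. The number of the 10 genes called in title number 6 was 2 to 5 with 1 library left out and 5 with the title number as a factor, the replicate block of that comparison, which added DUSP6 and ETV5. Among all title numbers the count of the 10 genes was 4 with DESeq2, 0 without title number 6 and 0 to 3 with 1 library left out. Of all genes, DESeq2 called 3344 there, and 386 to 1621 passed with 1 library left out. In title number 6, 1642 to 4543 of all genes passed with 1 library left out, the fewest without strongly adherent library 6. DESeq2 called 7 genes for title number 7-8, 30 for 9 and 32 for 10. With the title number as a factor, 10 genes passed for 7-8 and 3 for 9, and without title number 6, 15 for 9 and 1 for 10. The labels do not say that the numbers pair libraries. Deviations from the group means of same-numbered libraries correlated at 0.0164 to 0.767 over 13 pairs, 11 over 0.1. Pairs of different numbers correlated at -0.722 to 0.602, and 9 of 14 libraries correlated best with a library of their own number. Same-numbered libraries thus tended to be alike, which the main adhesion fit leaves out. The block gave DUSP6 in strongly adherent against unsorted an adjusted p of 0.561 (edgeR) and 0.138 (DESeq2), and 0 of the 10 genes passed in any adhesion comparison, where DESeq2 with the block called 30 of all genes for weakly against strongly adherent and 23 for strongly adherent against unsorted.

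All reversals of direction were of log2 fold changes that did not pass the test; the cause was not tested. For weakly against strongly adherent, the edgeR block gave DUSP5 0.028, SPRY4 0.28 and PHLDA1 0.032, and DESeq2 with the block 0.027, 0.28 and 0.032. Without title number 6, DUSP5 was 0.069, SPRY2 0.0051 and SPRY4 0.34, and without strongly adherent library 5 as well SPRY4 was 0.083 and SPRED1 0.041. For weakly adherent against unsorted, the edgeR block gave DUSP4 0.019, SPRY2 0.081, SPRY4 0.24 and ETV5 0.033, and DESeq2 with the block 0.014, 0.076, 0.23 and 0.029. Without title number 6 these were 0.062, 0.12, 0.21 and 0.039, and without strongly adherent library 5 as well 0.062, 0.12, 0.21 and 0.039. For strongly adherent against unsorted, the edgeR block gave DUSP5 -0.039 and SPRY4 -0.037, DESeq2 with the block -0.044 and -0.042, and the fit without title number 6 -0.13 and -0.13, with EPHA2 at 0.014. On the deposited log2 values, limma-trend gave SPRY4 0.043 (weakly against strongly adherent), 0.042 (weakly adherent against unsorted) and -0.0014 (strongly adherent against unsorted), and DUSP5 -0.013 in the last. Upper-quartile scaling gave SPRY4 0.012 for weakly adherent against unsorted and SPRED1 -0.021 for title number 6, where the title number as a factor (replicate block) gave DUSP4 0.026.

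With 1 library left out, weakly against strongly adherent ran from -0.053 to 0.089 for DUSP4, -0.44 to 0.19 for DUSP5, -0.40 to 0.066 for SPRY2, -0.38 to 0.37 for SPRY4 and -0.044 to 0.031 for PHLDA1. Weakly adherent against unsorted ran from -0.12 to 0.041 for DUSP4, -0.30 to 0.057 for DUSP5, -0.10 to 0.18 for SPRY2, -0.13 to 0.24 for SPRY4, -0.0054 to 0.10 for SPRED1, -0.17 to 0.056 for ETV5 and -0.053 to 0.091 for PHLDA1. Strongly adherent against unsorted ran from -0.36 to 0.30 for DUSP5, -0.091 to 0.42 for SPRY2, -0.38 to 0.37 for SPRY4, -0.034 to 0.11 for PHLDA1 and -0.13 to 0.032 for EPHA2. Title number 6 ran from -0.14 to 0.077 for DUSP4 and -0.16 to 0.15 for SPRED1. Scaling moved the median of all genes by under 0.1 on the log2 scale. The groups hold 4 to 6 libraries, and how far their size or the depth limits the precision was not tested.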
